A study of Solanum lycopersicum with 120 samples.

Results

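GH3 genes encode acyl acid amido synthetases, and 4 tomato genes of this family (*Solyc01g107390*, *Solyc02g064830*, *Solyc02g092820* and *Solyc12g005310*) were followed across organs, light conditions, times and genotypes. They were chosen by gene identifier and are 4 of 34075 genes listed. Of the 4, *Solyc02g092820* is annotated as an IAA-amido synthetase of the GH3 family with Arabidopsis GH3.3 as its closest homolog, and *Solyc12g005310* as a GH3 family protein closest to Arabidopsis DFL1 (GH3.6). The other 2 are named here by identifier only. Seedlings of cultivar M82 were raised for 12 d in long days of white light at 24 °C (24WL). Beginning 2 h after dawn, 1 set was given additional far-red light, which lowered the ratio of red to far-red light (R/FR) to 0.6 (24FR), and the other set stayed in 24WL. RNA of the cotyledons, first leaf, hypocotyl and epicotyl was sequenced, with 3 replicates per group and each replicate pooled from 4 seedlings. WT was sampled after 3, 6 and 24 h, which are zeitgeber times (hours after dawn) 5, 8 and 2, so that the 24 h samples had passed through a night. The mutant *slpif8a* (mutated in *SlPIF8a*) and the quadruple mutant *slpifq* (*slpif4 slpif7a slpif7b slpif8a*), both made with CRISPR-Cas9 in the M82 (*sp*) background of WT, were sampled after 6 h. In all, 120 libraries were used, and the 24 of WT at 6 h served in the time course and in the genotype comparison alike.

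In plants, most GH3 enzymes of the group named here join amino acids to indole-3-acetic acid (IAA), the main auxin, which removes it from the active pool. In Arabidopsis several *GH3* genes are themselves induced within a short time by auxin, so that their transcripts are often used as a readout of auxin response. Shade, which lowers R/FR, converts phytochromes to their inactive form and releases PHYTOCHROME-INTERACTING FACTORs (PIFs), transcription factors that in Arabidopsis raise auxin synthesis through *YUCCA* flavin monooxygenases.

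A library held from 15905765 to 33913236 gene counts. Levels are given as CPM, the counts of a gene in 1000000 gene counts, with libraries scaled by TMM factors, and 3 counts, taken as the floor of a library, correspond to 0.071 to 0.222 CPM. The summed level of 3 *RBCS* genes of the small Rubisco subunit, abundant in green blades, was taken as a check of the organs. It was 14079 to 42238 CPM in libraries of cotyledons and first leaf and 1995 to 3632 CPM in those of hypocotyl and epicotyl. Blades thus stood apart from stems as labelled. Hypocotyl and epicotyl overlapped, as did cotyledons and first leaf in the time course, so the labels within these pairs were not checked. The transcripts of the mutated *SlPIF* genes, which CRISPR edits need not lower, were not analysed here as a check of the genotypes. In the time course 17469 genes had more than 5 counts per 1000000 gene counts, taken before TMM scaling, in at least 3 libraries and were tested, 3 of the 4 GH3 genes among them, and in the genotype comparison 17460, with *Solyc02g092820* and *Solyc12g005310* only. Of the 72 libraries of the time course, *Solyc01g107390* passed this minimum in 3 and *Solyc02g092820* in 13, all of them epicotyls. In the genotypes *Solyc02g092820* passed it in 9 libraries, again all epicotyls, of which 6 were of 24FR and 3 of 24WL. The 6 of 24FR were of WT and *slpif8a*, whose 24FR epicotyls held at least 6.30 CPM, against at most 3.22 CPM in *slpifq*. The epicotyl calls of *Solyc02g092820* for light were thus made in the organ through which it came to be tested. Its differences between *slpifq* and the other genotypes in 24FR epicotyls are given as a description, although the counts of calls at the end include them. These genes were therefore tested through the organ in which they were highest, and their excess in the epicotyl is given as a description. A gene was called for a difference at an adjusted p under 0.05 in edgeR's quasi-likelihood test with an absolute log2 fold change above 1. Differences between responses were called at an adjusted p under 0.05 alone. Levels are of whole organs, in which fewer cells of a type and less RNA per cell cannot be told apart. Transcript lengths were not used here, so levels are not compared between the genes.

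*Solyc12g005310* rose in 24FR in 3 organs at 3 h and in all 4 organs at 6 h. At 3 h it stood in the cotyledons at 4.87, 5.09 and 4.32 CPM in the 3 libraries of 24WL and at 24.7, 88.4 and 88.0 CPM in those of 24FR. The groups did not overlap, although replicate 1 of 24FR was well under the other 2. First leaves held 2.62, 2.25 and 2.79 CPM in 24WL and 13.2, 11.4 and 11.6 CPM in 24FR. The epicotyl had 12.9, 15.0 and 17.3 CPM in 24WL and 36.0, 34.4 and 32.3 CPM in 24FR. The hypocotyl was close to it in both lights, at 17.0, 15.6 and 15.4 and 33.1, 33.8 and 29.9 CPM. In none of the 4 organs did the replicates of the lights overlap. The log2 fold change was 3.81 (SE 0.41, adjusted p = 3.47e-10) in the cotyledons, 2.23 (SE 0.44, adjusted p = 0.000559) in the first leaf and 1.18 (SE 0.34, adjusted p = 0.0409) in the epicotyl, all called. The hypocotyl, at 1.01 (SE 0.34, adjusted p = 0.0501), missed the threshold. Of all genes tested, 0.819% were called higher at 3 h in cotyledons, 0.492% in first leaves, 0.71% in hypocotyls and 0.429% in epicotyls. The epicotyl call was lost on leaving out any 1 of its 6 libraries (adjusted p 0.0842 to 0.162), and with DESeq2 and limma. The hypocotyl gained a call with a term for the replicate number (adjusted p = 0.0469).

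At 6 h the increase of *Solyc12g005310* was seen in every organ. Cotyledons held 5.79, 1.87 and 0.677 CPM in 24WL and 54.9, 24.5 and 23.3 CPM in 24FR. The spread among replicates was wide in both lights, with replicate 1 the highest in each, but the lights did not overlap. First leaves held 1.99, 1.97 and 2.30 CPM against 19.9, 15.5 and 7.70 CPM in 24FR. Hypocotyls went from 10.7, 5.11 and 6.25 CPM to 46.2, 42.1 and 17.3 CPM, and epicotyls from 13.5, 7.73 and 13.3 CPM to 38.2, 34.7 and 25.0 CPM. In all 4 organs replicate 3 was the lowest of 24FR, and still above every replicate of 24WL. The response was 3.74 (SE 0.43, adjusted p = 1.55e-09) in the cotyledons, 2.79 (SE 0.43, adjusted p = 2.97e-06) in the first leaf, 2.25 (SE 0.36, adjusted p = 1.99e-06) in the hypocotyl and 1.51 (SE 0.35, adjusted p = 0.000827) in the epicotyl, by edgeR. Here 1.56%, 1.04%, 2% and 1.27% of all genes were called higher in the same order of organs. The response of the cotyledons exceeded that of the epicotyl by 2.23 (SE 0.56, adjusted p = 0.00576) on the log2 scale, a difference called for 4.92% of genes in this direction. The other 5 pairs of organs were not called for *Solyc12g005310*, with adjusted p from 0.0984 to 0.889. The cotyledons and hypocotyl differed by 1.49, with a 95% interval of 0.35 to 2.62, and this pair was called without replicate 1 of 24WL cotyledons (adjusted p = 0.00687) or replicate 3 of 24FR cotyledons (adjusted p = 0.0487), with limma on log2 CPM plus 0.1 and with a block of replicate within organ and time. The first leaf and epicotyl were called in a fit to these organs alone (adjusted p = 0.0141).

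At 24 h the calls differed between organs, while differences between the responses of organs were tested at 6 h only. In the cotyledons *Solyc12g005310* was still raised, at 37.3, 50.5 and 56.9 CPM in 24FR against 14.1, 20.9 and 16.3 CPM in 24WL, with a log2 fold change of 1.49 (SE 0.35, adjusted p = 0.00101). In the first leaf, 10.4, 11.4 and 10.7 CPM in 24FR stood above 3.95, 6.94 and 5.17 CPM in 24WL without overlap, but at 1.02 (SE 0.40, adjusted p = 0.11) the difference was not called, except in a fit to the first leaf alone (adjusted p = 0.0154) and with a block of replicate within organ and time. The cotyledon call was lost in a fit to the cotyledons alone (adjusted p = 0.0579). In the epicotyl the direction had turned. There the 24FR libraries held 12.3, 12.6 and 13.0 CPM and the 24WL libraries 25.1, 22.8 and 34.3 CPM, so that *Solyc12g005310* fell by 1.12 on the log2 scale (SE 0.35, adjusted p = 0.00548). Without replicate 3 of the 24WL epicotyls, the highest of its group, the fold change was -0.92 and no longer past the threshold of size. The hypocotyl was at 7.42, 9.55 and 12.2 CPM in 24FR and 10.6, 13.6 and 16.2 CPM in 24WL, overlapping, with -0.47 (SE 0.36, adjusted p = 0.344). Of all genes, 1.59% were called higher in the cotyledons at 24 h, and 4.33% lower in the epicotyl.

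The change of the response of *Solyc12g005310* from 6 to 24 h was -2.25 (SE 0.56, adjusted p = 0.00679) in the cotyledons, -2.72 (SE 0.51, adjusted p = 0.000158) in the hypocotyl and -2.62 (SE 0.49, adjusted p = 5.76e-05) in the epicotyl, all called by edgeR, that of the cotyledons not in a fit to the cotyledons alone (adjusted p = 0.204). A response lower at 24 h than at 6 h was called for 4.81%, 3.8% and 8.35% of all genes in these organs. In the first leaf it was -1.76 and not called (adjusted p = 0.154, 95% interval -2.95 to -0.57), although a fit to the first leaf alone called it (adjusted p = 0.0202). No change from 3 to 6 h was called in any organ, and the largest, in the hypocotyl, was 1.24 (SE 0.49, adjusted p = 0.183). The means of the 2 lights moved differently by organ. In the cotyledons the mean of 24FR went from 34.2 ± 17.9 to 48.2 ± 9.99 CPM (SD, n = 3), while that of 24WL went from 2.78 ± 2.67 to 17.1 ± 3.43 CPM. In the epicotyl 24FR went from 32.6 ± 6.83 to 12.7 ± 0.368 CPM and 24WL from 11.5 ± 3.26 to 27.4 ± 6.10 CPM. Since 24 h lies at another zeitgeber time than 6 h and on the next day, hours of treatment, time of day and age cannot be told apart here.

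**Figure D1:**
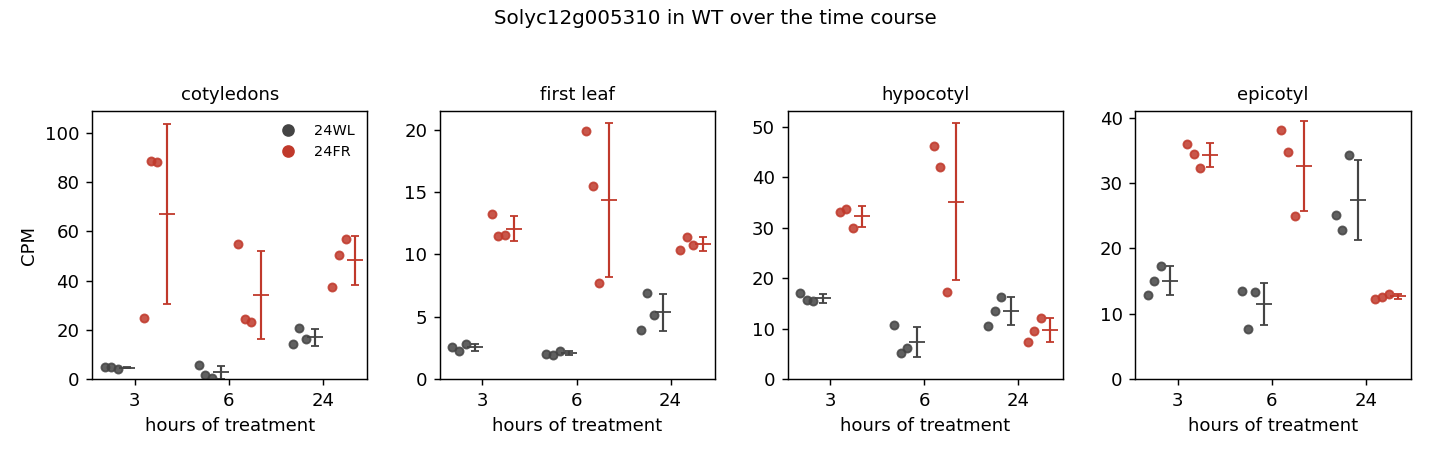
Level of *Solyc12g005310* in WT (CPM, linear axis from 0, own scale per organ) after 3, 6 and 24 h in 24WL (grey) and 24FR (red). Points are the 3 libraries, dashes with bars the mean ± SD. Red points lie above grey points in every organ at 3 and 6 h, and below them in the epicotyl at 24 h.

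In 24WL alone *Solyc12g005310* differed between organs and between times of sampling. At 6 h its mean was 11.5 ± 3.26 CPM in the epicotyl, 7.35 ± 2.96 CPM in the hypocotyl, 2.78 ± 2.67 CPM in cotyledons and 2.09 ± 0.183 CPM in first leaves (SD, n = 3). The neighbours epicotyl and hypocotyl were not called as different (hypocotyl against epicotyl -0.64, SE 0.36, adjusted p = 0.115), nor were cotyledons and first leaf (cotyledons against first leaf 0.30, SE 0.53, adjusted p = 0.632). Both stems were called above both blades. Cotyledons were -1.52 against the hypocotyl on the log2 scale, with overlapping replicates, and -2.16 against the epicotyl, and first leaves -1.82 and -2.46. Organ differences were frequent, with 16.6% to 40% of all genes called per pair. The hypocotyl and epicotyl were called as different without replicate 1 of the hypocotyls (adjusted p = 0.0305).

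The 24 h samples lay at zeitgeber time 2 of the next day and those of 6 h at zeitgeber time 8. Time of day and age of the plants cannot be told apart between them. From 6 to 24 h *Solyc12g005310* rose in 24WL by 2.74 (SE 0.44, adjusted p = 3.56e-07) in the cotyledons, 1.35 (SE 0.47, adjusted p = 0.0108) in the first leaf and 1.26 (SE 0.35, adjusted p = 0.00233) in the epicotyl. These differences were called for 8.84%, 7.74% and 4.55% of all genes in the same direction. The hypocotyl, at 0.87 (SE 0.36, adjusted p = 0.0396), did not reach the threshold of size. Between 3 and 6 h the gene fell in the hypocotyl only (-1.12, SE 0.36, adjusted p = 0.0156, against 2.45% of genes called lower), from 17.0, 15.6 and 15.4 to 10.7, 5.11 and 6.25 CPM. In the cotyledons the fall of the same hours was called with limma on log2 CPM plus 0.1 and without replicate 1 of the 6 h group (adjusted p = 0.00442). The first leaf call was lost without replicate 2 of the 24 h group (adjusted p = 0.0613). The fall in the hypocotyl was lost without replicate 2 or 3 of the 6 h group (adjusted p = 0.102 and 0.0734), and the hypocotyl passed the threshold from 6 to 24 h without replicate 1 of either group (log2 fold change 1.02 and 1.24). With a block of replicate within each organ and time, of these 4 calls only that of the cotyledons was kept.

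*Solyc02g092820* rose in 24FR at 6 h in the cotyledons, hypocotyl and epicotyl, and was not called in the first leaf. In the hypocotyl no read was counted in any of the 3 libraries of 24WL at 6 h, while the 24FR libraries held 31, 36 and 14 counts, or 1.03, 1.13 and 0.387 CPM. Against the floor of 3 counts per library this is at least 9.10-fold higher (adjusted p = 1.18e-05 by edgeR). In the cotyledons, counts were 1, 0 and 4 in 24WL and 17, 14 and 9 in 24FR, 0.0697, 0 and 0.193 against 0.840, 0.695 and 0.530 CPM, which do not overlap. The log2 fold change was 2.86 (SE 0.95, adjusted p = 0.0313), and the ratio of the summed counts 7.58 with an interval of 2.99 to 24.6 that covers counting error only. In the epicotyl, where the gene was highest, it stood at 2.28, 1.28 and 4.71 CPM in 24WL and 6.11, 13.5 and 6.08 CPM in 24FR, with 1.63 (SE 0.41, adjusted p = 0.00229). Replicate 2 was at once the lowest of the 24WL and the highest of the 24FR epicotyls. The first leaf, with 1.36, 1.64 and 2.21 CPM in 24WL and 2.18, 1.96 and 2.32 CPM in 24FR, had overlapping replicates and no call (0.31, SE 0.47, adjusted p = 0.75, 95% interval -0.64 to 1.25). With *Solyc12g005310*, called in the same 3 organs and in the first leaf, 2 of the 3 GH3 genes tested were called higher in the cotyledons, hypocotyl and epicotyl at 6 h. Of all genes, 1.56%, 2% and 1.27% were called higher in these organs.

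The hypocotyl call of *Solyc02g092820* held on leaving out any 1 library (highest adjusted p 0.000243). Fits to the hypocotyl, cotyledons or first leaf alone left the gene out, since none of their libraries passed the filter. Of the settings that tested the hypocotyl, only limma on log2 CPM plus 1 missed the call, where levels under 1 CPM are compressed. The cotyledon call was lost with that setting too, and without replicate 1 or 2 of either light (adjusted p = 0.0846 and 0.0622 for 24FR, 0.0743 and 0.137 for 24WL). The epicotyl call was lost without replicate 2 of 24FR (adjusted p = 0.0568). The response in the first leaf differed from that in the hypocotyl (adjusted p = 0.00137, against 3.61% of genes called in this direction), a call lost with limma on log2 CPM plus 1 (adjusted p = 0.277). Other pairs of organs were not called (adjusted p 0.0606 to 0.634). The pair of hypocotyl and epicotyl, nearest to the threshold, was called with the likelihood ratio test and with DESeq2, and without replicate 2 of the epicotyls of 24FR or of 24WL or replicate 3 of the 24FR hypocotyls (adjusted p = 0.0281, 0.0312 and 0.0358). The cotyledons and hypocotyl were called with the likelihood ratio test (adjusted p = 0.0327), and the first leaf and epicotyl with limma on log2 CPM plus 1 (adjusted p = 0.0238).

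At 3 h *Solyc02g092820* was called in the hypocotyl (adjusted p = 0.00682), on counts of 2, 0 and 1 in 24WL and 42, 9 and 0 in 24FR. The replicates overlapped, and the third of 24FR held no read. The ratio of the summed counts was 16.8 (counting interval 5.44 to 84.3). Replicate 1 of 24FR carried this call, which was lost without it (adjusted p = 0.373), without replicate 2 of 24WL (adjusted p = 0.0501) and with limma. In the cotyledons at 3 h, 0.0572, 0.326 and 0.0635 CPM in 24WL and 0.245, 1.27 and 0.983 CPM in 24FR gave 2.48 (SE 0.89, adjusted p = 0.085), which was not called. It was called without replicate 1 of 24FR (adjusted p = 0.0269), the lowest of its group, and with the likelihood ratio test, DESeq2 and limma on log2 CPM plus 0.1. In the epicotyl and first leaf no response was called at 3 h (log2 fold changes 0.06 and -0.29). The change of the epicotyl response from 3 to 6 h was not called (adjusted p = 0.202), except with limma on log2 CPM plus 1 (adjusted p = 0.0364).

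By 24 h no organ was called for *Solyc02g092820*, where 1.59%, 0.607%, 2.06% and 2.6% of all genes were called higher in cotyledons, first leaves, hypocotyls and epicotyls, with log2 fold changes from -0.47 in the epicotyl to 1.12 in the hypocotyl. In the epicotyl the 24FR libraries, at 3.89, 3.46 and 4.53 CPM, had come to lie under all of 24WL, at 5.63, 4.93 and 5.87 CPM. The response was lower at 24 h than at 6 h in the epicotyl, with a difference of -2.10 (SE 0.58, adjusted p = 0.00522), and in the hypocotyl (adjusted p = 0.0289), where 2, 7 and 14 counts were found in 24FR and 5, 4 and 2 in 24WL. The hypocotyl call was lost without any 1 of the 3 libraries of 24WL at 6 h, without replicate 1 or 2 of 24WL at 24 h, replicate 2 of 24FR at 6 h or replicate 1 of 24FR at 24 h (adjusted p 0.0506 to 0.0837), and with limma on log2 CPM plus 1. The cotyledons and first leaf were not called (adjusted p = 0.214 and 0.934).

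**Figure D2:**
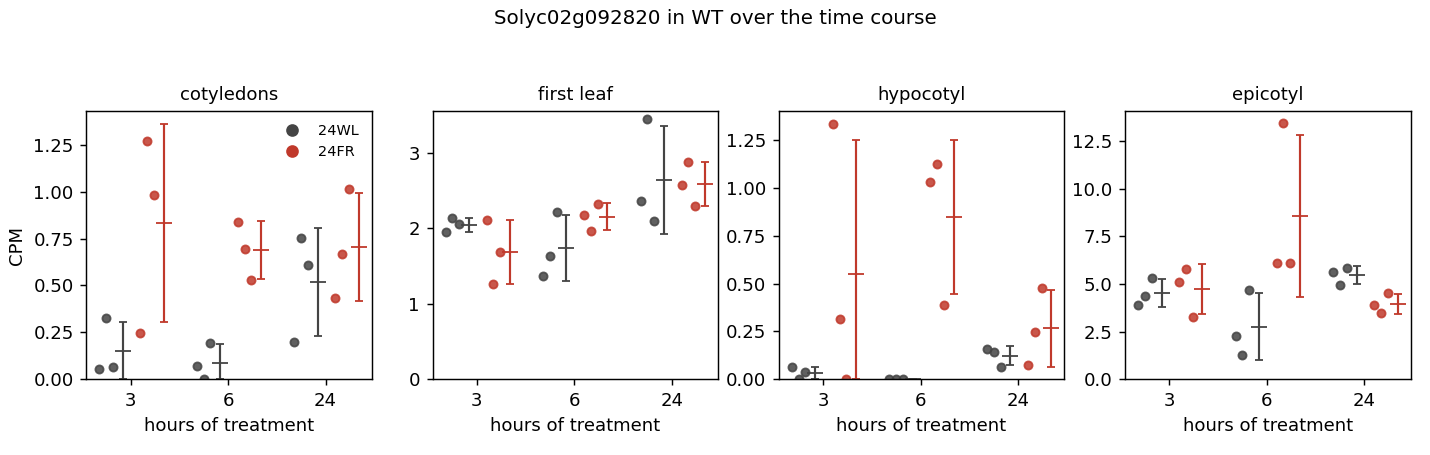
Level of *Solyc02g092820* in WT (CPM, linear axis from 0, own scale per organ) after 3, 6 and 24 h in 24WL (grey) and 24FR (red), with the 3 libraries as points and the mean ± SD as dashes with bars. At 6 h red points lie above grey points in cotyledons, hypocotyl and epicotyl, and overlap them in the first leaf.

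In 24WL at 6 h the order of *Solyc02g092820* was epicotyl (2.76 ± 1.77 CPM), first leaf (1.74 ± 0.435 CPM), cotyledons (0.0877 ± 0.0979 CPM) and hypocotyl (0 counts in 3 libraries). Since the filter was passed through epicotyls alone, the epicotyl is compared here as a description, with no test. Its replicates overlapped those of the first leaf (log2 difference of first leaf against epicotyl -0.67). The epicotyl was at least 29.6-fold and the first leaf at least 18.6-fold higher than the hypocotyl. The cotyledons and hypocotyl were not called as different (adjusted p = 0.0682 by edgeR), except with DESeq2 (adjusted p = 0.00639) and the likelihood ratio test (adjusted p = 0.00349). The cotyledons were called below the first leaf (cotyledons against first leaf -4.17, SE 0.81, adjusted p = 1.37e-05), as were 9.2% of all genes. Without replicate 2 of the cotyledons, these were called above the hypocotyl (adjusted p = 0.0396). From 6 to 24 h in 24WL *Solyc02g092820* rose in the cotyledons to 0.198, 0.753 and 0.609 CPM (2.47, SE 1.01, adjusted p = 0.0299) and in the hypocotyl to 0.160, 0.143 and 0.0652 CPM, at least 1.32-fold higher (adjusted p = 0.0371), where 6.41% of genes were called higher. Both calls rested on few counts and were lost with limma on log2 CPM plus 1 and with a block of replicate within organ and time, that of the hypocotyl also with limma on log2 CPM plus 0.1 and with no filter. That of the cotyledons was lost without 4 of the 6 libraries (replicates 1 and 2 at 6 h, 2 and 3 at 24 h, adjusted p 0.0627 to 0.124), and that of the hypocotyl without 5 of 6, all but replicate 3 at 24 h (adjusted p 0.0658 to 0.0887). In the epicotyl the rise over the same hours was 0.99 (SE 0.41, adjusted p = 0.0453), under the threshold of size, and passed it with DESeq2 size factors in edgeR, with a block of replicate within organ and time and without replicate 3 of the 6 h group (log2 fold change 1.63). Without that library the fall from 3 to 6 h in the epicotyl was called too (adjusted p = 0.0378).

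*Solyc01g107390* differed between organs and was called for light in none of the 12 comparisons of the time course. In 24WL at 6 h it stood at 4.17, 3.33 and 2.96 CPM in the epicotyl, 1.58, 2.36 and 1.46 CPM in first leaves, 0.0697, 1.66 and 1.64 CPM in cotyledons and 0.554, 0.477 and 0.710 CPM in the hypocotyl. The epicotyl lay above every library of the other organs, and replicate 1 of the cotyledons, with 1 count, far under its fellows. Only epicotyl libraries had carried this gene past the filter, so the log2 differences of -2.57 for hypocotyl against epicotyl and -1.55 for cotyledons against epicotyl are given with no test. First leaves were called above hypocotyls (1.61, SE 0.41, adjusted p = 0.000501), as were 17.8% of all genes. For first leaf against epicotyl the log2 difference was -0.96, likewise a description. The cotyledons were called above the hypocotyl (1.01, SE 0.44, adjusted p = 0.0339, against 19.4% of all genes) with overlapping replicates. This call was lost without replicate 2 or 3 of the cotyledons (adjusted p = 0.221 and 0.234), replicate 1 or 2 of the hypocotyls (adjusted p = 0.0716 and 0.0923), without a filter, with a block of replicate within organ and time, and with the replicate block, which held same-numbered samples of these groups together (adjusted p = 0.0343, log2 fold change 0.98).

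The responses of *Solyc01g107390* to light lay between -0.73 (hypocotyl, 3 h) and 0.85 (first leaf, 24 h) on the log2 scale, with overlapping replicates in all 12 comparisons. At 6 h their 95% intervals were -1.14 to 0.64 for cotyledons, -1.07 to 0.49 for first leaves, -0.59 to 1.17 for hypocotyls and -0.93 to 0.40 for epicotyls, so that an increase of the size seen for *Solyc12g005310* in the same organs lay outside them. Without the filter, which left it out of the genotype comparison, none of its 40 comparisons there was called either. In the cotyledons in 24WL it was called higher at 6 h than at 3 h (1.32, SE 0.51, adjusted p = 0.029, against 4.65% of genes), although the replicates overlapped. That call was lost without replicate 2 or 3 of the 3 h group (adjusted p = 0.052 and 0.111) or of the 6 h group (adjusted p = 0.163 and 0.175), and with a block of replicate within organ and time (adjusted p = 0.594). From 6 to 24 h a fall was called in the cotyledons without replicate 1 of the 6 h group (adjusted p = 0.03) and in the first leaf without replicate 2 of the 24 h group (adjusted p = 0.0319), and in neither organ with all libraries.

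**Figure D3:**
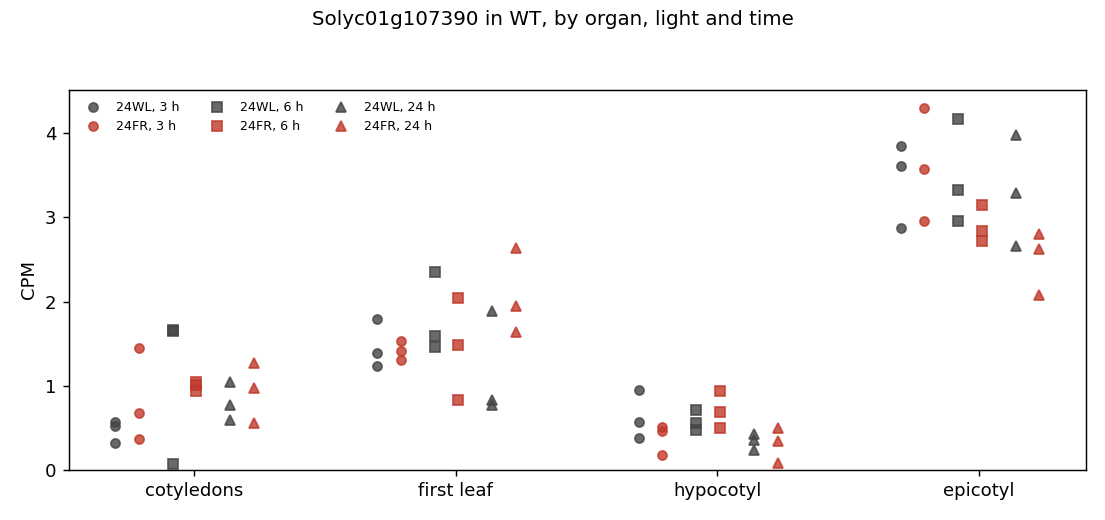
Level of *Solyc01g107390* in WT (CPM, linear axis from 0) by organ, with each library as a point, 24WL in grey and 24FR in red, and the shape giving the time. Epicotyl libraries lie above all others at 3 and 6 h and overlap those of the first leaf at 24 h, and grey and red points overlap within each organ.

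*Solyc02g064830* was scarcely read. It had between 0 and 22 counts in the libraries of the time course and up to 61 in those of the genotypes, and did not pass the filter in either. In WT cotyledons at 6 h it held 1, 22 and 7 counts in 24WL and 19, 4 and 7 in 24FR. In first leaves of 24WL, a group of 0, 21 and 1 counts at 6 h, a single library held nearly all reads. The highest level was that of *slpif8a* cotyledons in 24FR, 0.956, 1.57 and 2.39 CPM against 0.404, 0.448 and 0.366 CPM in 24WL, which did not overlap. In a fit without the filter no response to light and no difference between genotypes was called among its 80 comparisons. The 6 calls of that fit were differences between organs or times in 24WL that involved the cotyledons or first leaf.

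In *slpif8a* the increase of *Solyc12g005310* at 6 h was called in all 4 organs. In *slpif8a* cotyledons it went from 3.48, 1.83 and 0.504 CPM in 24WL to 56.9, 68.9 and 33.5 CPM in 24FR, and in first leaves from 1.56, 1.67 and 1.42 to 20.0, 16.6 and 13.9 CPM. Hypocotyls went from 17.7, 11.5 and 13.5 to 73.3, 49.4 and 65.1 CPM and epicotyls from 11.6, 9.98 and 15.6 to 51.4, 40.4 and 47.6 CPM. None of these 4 pairs overlapped, as in WT. The log2 fold change in *slpif8a* was 4.80 (SE 0.54, adjusted p = 1.24e-09) in the cotyledons, 3.43 (SE 0.55, adjusted p = 2.33e-05) in the first leaf, 2.14 (SE 0.44, adjusted p = 0.00042) in the hypocotyl and 1.91 (SE 0.44, adjusted p = 0.00141) in the epicotyl. In the same fit WT gave 3.71, 2.79, 2.27 and 1.51, all called, the epicotyl with an adjusted p of 0.0109 that rose to 0.0728 without replicate 2 of 24WL and 0.0579 with limma on log2 CPM plus 0.1. Of all genes, 1.51%, 0.67%, 1.17% and 1.48% were called higher in *slpif8a* in this order of organs, against 1.44%, 0.876%, 1.95% and 1.19% in WT. The response of *slpif8a* minus that of WT was 1.08 (95% interval -0.41 to 2.57), 0.65 (-0.90 to 2.19), -0.13 (-1.36 to 1.10) and 0.40 (-0.83 to 1.63), and none was called. In 24FR the level in *slpif8a* was called different from WT in no organ, with log2 fold changes of 0.08 to 0.73. The epicotyls, at 40.4 to 51.4 CPM in *slpif8a* and 25.9 to 39.8 CPM in WT, did not overlap. In 24WL no organ was called either. There *slpif8a* hypocotyls (11.5 to 17.7 CPM) lay above those of WT (5.45 to 11.3 CPM), and first leaves (1.42 to 1.67 CPM) below those of WT (2.16 to 2.51 CPM), both without overlap.

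In *slpifq* no response of *Solyc12g005310* was called. Cotyledons held 3.68, 1.86 and 0.320 CPM in 24WL and 4.08, 7.32 and 1.16 CPM in 24FR, and first leaves 2.94, 2.10 and 1.35 and 4.65, 6.89 and 2.17 CPM. Hypocotyls stood at 8.42, 9.48 and 9.998 and 14.0, 15.6 and 9.97 CPM and epicotyls at 9.97, 14.8 and 10.9 and 10.2, 11.2 and 9.08 CPM. The lights overlapped in each organ. The log2 fold changes were 1.11 (95% interval -0.06 to 2.27), 1.12 (-0.01 to 2.25), 0.51 (-0.38 to 1.40) and -0.23 (-1.12 to 0.66), with adjusted p of 0.171 to 0.83. Of all genes, 1.63%, 0.149%, 0.699% and 0.326% were called higher in *slpifq*. In 24WL the gene did not differ by call between *slpifq* and WT in any organ.

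In 24FR *Solyc12g005310* was lower in *slpifq* than in the WT samples of all 4 organs, with log2 differences of -3.13 (SE 0.50, adjusted p = 1.34e-05) in the cotyledons, -1.80 (SE 0.48, adjusted p = 0.0276) in the first leaf, -1.52 (SE 0.44, adjusted p = 0.0154) in the hypocotyl and -1.74 (SE 0.44, adjusted p = 0.00905) in the epicotyl. No replicate of *slpifq* reached the lowest of WT. Among all genes 0.659%, 0.298%, 0.939% and 0.458% were called lower in these organs. The cotyledon call was kept on leaving out any 1 library (highest adjusted p 0.000774), and lost in a fit to the cotyledons alone (adjusted p = 0.0568). In the other 3 organs limma on log2 CPM plus 0.1 did not call it. That of the first leaf was lost without replicate 1 or 3 of *slpifq* or replicate 1 or 2 of WT (adjusted p = 0.0701, 0.186, 0.185 and 0.0848). The hypocotyl call was lost without the same replicates of the hypocotyls (adjusted p = 0.0555, 0.068, 0.0836 and 0.0611), and the epicotyl call without replicate 3 of *slpifq* (adjusted p = 0.057).

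The test of the response itself was called in the cotyledons, where that of *slpifq* was the lower, at -2.61 (SE 0.79, adjusted p = 0.0408) against WT. A lower response was called for 2.92% of all genes. This call was near the threshold and was lost in a fit to the cotyledons alone (adjusted p = 0.374) and on leaving out any of 8 of its 12 libraries. These were replicates 1 and 3 of *slpifq* in 24FR (adjusted p = 0.0677 and 0.116), 1 and 2 of *slpifq* in 24WL (0.225 and 0.0567), 1 and 2 of WT in 24FR (0.135 and 0.0606) and 2 and 3 of WT in 24WL (0.0773 and 0.0762). In the first leaf, hypocotyl and epicotyl the difference of the responses was -1.66, -1.76 and -1.74, with 95% intervals of -3.22 to -0.11, -3.02 to -0.50 and -2.98 to -0.49 and adjusted p of 0.594, 0.209 and 0.325, beside 0.16%, 0.802% and 0.235% of all genes called lower. That of the epicotyl was called in a fit to the epicotyl alone (adjusted p = 0.00675), and those of both stems with a block of replicate within organ and time. The mutants were also set against each other in 24FR. *Solyc12g005310* was lower in *slpifq* than in *slpif8a*, with log2 differences of -3.67 (SE 0.50, adjusted p = 1.04e-06) in the cotyledons, -2.24 (SE 0.45, adjusted p = 0.00198) in the hypocotyl and -2.19 (SE 0.45, adjusted p = 0.003) in the epicotyl, where 0.584%, 0.378% and 0.286% of genes were called lower. In the first leaf the difference of -1.88 (SE 0.48, adjusted p = 0.0579) missed the threshold. It was called with the replicate block, which same-numbered samples of this pair allow (adjusted p = 0.00899), with a fit to the first leaf alone and with limma on log2 CPM plus 1, and, just under the threshold, without replicate 2 of *slpifq*.

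**Figure D4:**
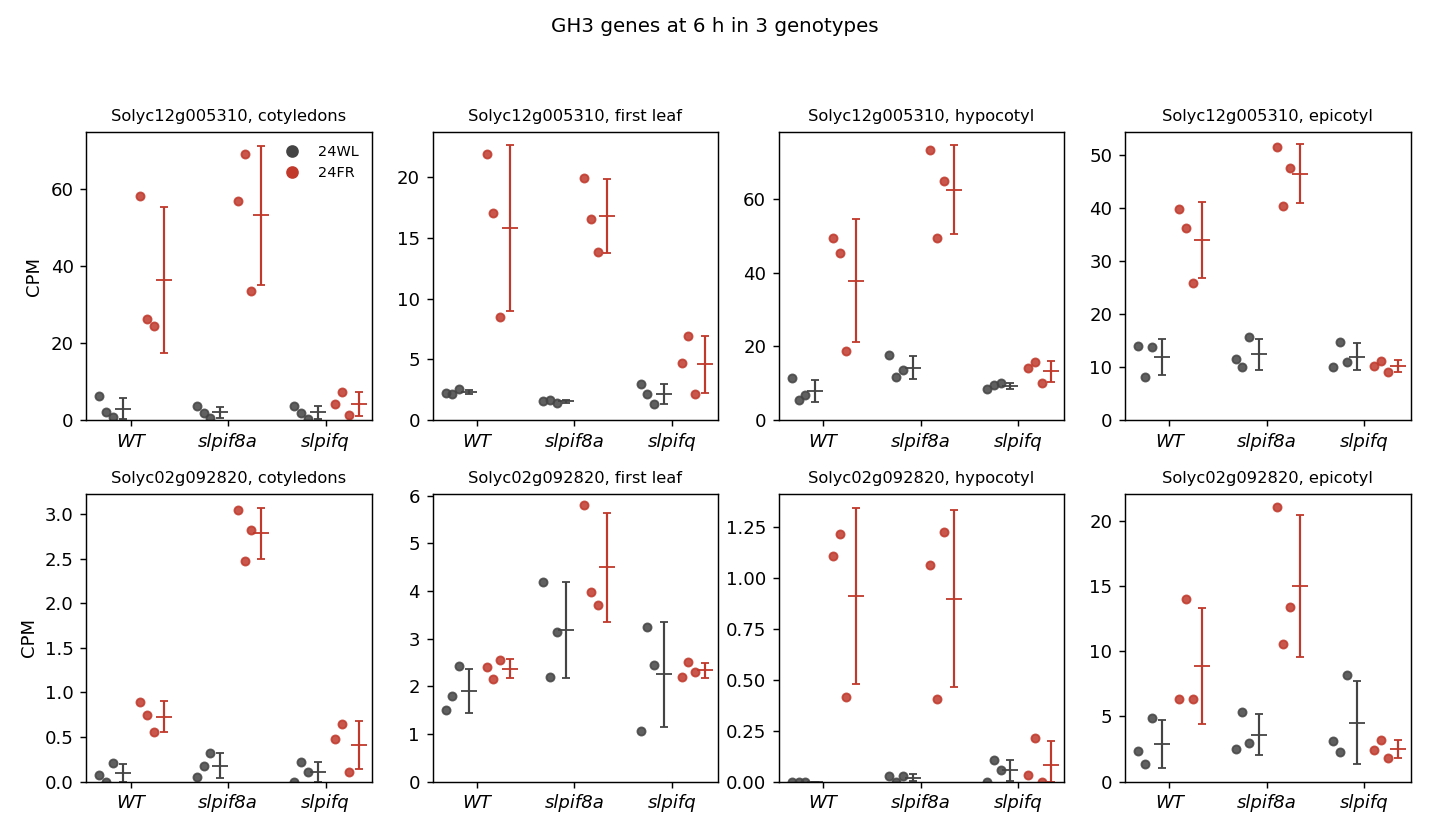
Levels (CPM, linear axes from 0, own scale per panel) at 6 h of *Solyc12g005310* in the upper row and *Solyc02g092820* in the lower row, in WT, *slpif8a* and *slpifq*, in 24WL (grey) and 24FR (red), with libraries as points and mean ± SD as dashes with bars. For *Solyc12g005310* red lies above grey without overlap in WT and *slpif8a* in all 4 organs, and overlaps it in *slpifq*.

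*Solyc02g092820* likewise rose in *slpif8a* in the 3 organs in which it rose in WT. In *slpif8a* cotyledons it stood at 0.0505, 0.172 and 0.321 CPM in 24WL and 3.05, 2.48 and 2.82 CPM in 24FR, and in epicotyls at 2.49, 5.38 and 2.95 and 21.1, 10.5 and 13.4 CPM. In hypocotyls of *slpif8a* the counts were 1, 0 and 1 in 24WL and 41, 15 and 44 in 24FR, a ratio of summed counts of 48.8 (counting interval 13.2 to 408). The lights did not overlap in any of the 3. The log2 fold change of *slpif8a* was 3.89 (SE 0.66, adjusted p = 2.07e-05) in the cotyledons and 2.05 (SE 0.45, adjusted p = 0.000771) in the epicotyl, with an adjusted p of 5.41e-05 in the hypocotyl (under the threshold of size, at 0.87, with limma on log2 CPM plus 1). Both genes tested were thus called higher in the cotyledons, hypocotyl and epicotyl, and 1 of the 2 in the first leaf. Of all genes, 1.51%, 1.17%, 1.48% and 0.67% were called higher in these organs. First leaves of *slpif8a*, at 4.19, 2.19 and 3.14 CPM in 24WL and 5.80, 3.98 and 3.70 CPM in 24FR, showed no call (0.50, SE 0.46, adjusted p = 0.585). No response of *slpif8a* was called as different from WT, with 95% intervals for the difference of -1.88 to 3.95 in the cotyledons and -0.83 to 1.66 in the epicotyl. In 24FR the cotyledons of *slpif8a* stood above those of WT, which held 0.891, 0.744 and 0.554 CPM, without overlap. That difference of 1.92 (SE 0.56, adjusted p = 0.0557) was just short of a call, and was called with the likelihood ratio test, DESeq2, limma and a replicate block (adjusted p = 0.0449). In this fit the WT cotyledon response was called at 0.0366, lost without the same 4 libraries as in the time course (adjusted p 0.0759 to 0.154) and with no filter, limma on log2 CPM plus 1 or a block of replicate within organ and time, and the WT epicotyl response at 0.00668, lost without replicate 2 of either light (adjusted p = 0.0987 for 24FR and 0.0679 for 24WL).

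In *slpifq* *Solyc02g092820* was called for light in no organ. Hypocotyls had 0, 4 and 2 counts in 24WL and 1, 7 and 0 in 24FR, a ratio of 1.57 (counting interval 0.479 to 5.50). Epicotyls held 3.12, 2.28 and 8.19 CPM in 24WL and 2.39, 3.22 and 1.84 CPM in 24FR (-0.85, SE 0.45, adjusted p = 0.292), and replicate 3 was the highest of the former and the lowest of the latter. Cotyledons held 0, 0.216 and 0.107 and 0.475, 0.644 and 0.110 CPM (1.77, SE 0.97, adjusted p = 0.19). Compared with WT in 24FR, *Solyc02g092820* was lower in *slpifq* in the hypocotyl, at -3.30 (SE 0.77, adjusted p = 0.00262), without overlap of replicates. The hypocotyl call was kept without any 1 library and missed with limma on log2 CPM plus 1. The epicotyls differed by -1.84 on the log2 scale, also without overlap. This is a description with no test, since 24FR epicotyls carried the gene past the filter in WT but not in *slpifq*. Without replicate 3 of *slpifq* the difference was -1.67, and without replicate 2 of WT -1.35. The cotyledons (-0.84, SE 0.71, adjusted p = 0.469) and the first leaf (-0.02, SE 0.49, adjusted p = 0.994) were not called.

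Against *slpif8a* in 24FR, *Solyc02g092820* in *slpifq* was lower, with log2 differences of -2.76 (SE 0.61, adjusted p = 0.00253) in the cotyledons and -3.29 (SE 0.76, adjusted p = 0.0113) in the hypocotyl. Hence both genes tested were lower in *slpifq* than in *slpif8a* in each of these organs, in which 0.584% and 0.378% of all genes were. The epicotyls differed by -2.59, a description with no test, since 24FR epicotyls carried the gene past the filter in *slpif8a* but not in *slpifq*. In the first leaf, at -0.94 (SE 0.47, adjusted p = 0.609), the replicates did not overlap but no call was made. The hypocotyl call was lost without replicate 3 of *slpif8a* or replicate 1 or 3 of *slpifq* (adjusted p = 0.094, 0.128 and 0.0685), and with limma on log2 CPM plus 1 (adjusted p = 0.193). The response of *slpifq* was not called as different from that of WT in any organ for this gene. Nearest was the epicotyl, whose WT libraries of 24FR were among those past the filter, at -2.49 (SE 0.64, adjusted p = 0.0509) with a 95% interval of -3.76 to -1.21. It was called with the likelihood ratio test (adjusted p = 0.0368), DESeq2 (0.035), DESeq2 size factors in edgeR (0.0494), limma on log2 CPM plus 1 (0.00582) and both replicate blocks, and without replicate 1 or 2 of *slpifq* in 24WL, replicate 1 or 3 of WT in 24FR or replicate 3 of WT in 24WL (adjusted p 0.00919 to 0.0487). In the hypocotyl (adjusted p = 0.139) the likelihood ratio test, DESeq2 and limma on log2 CPM plus 0.1 called it.

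**Figure D5:**
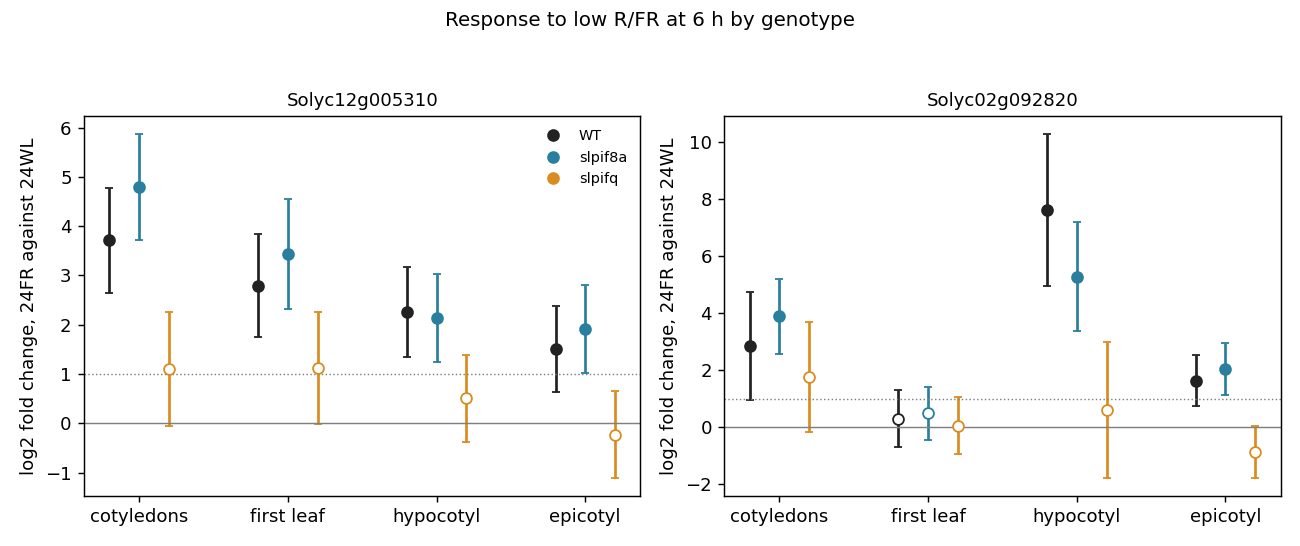
Log2 fold change of 24FR against 24WL at 6 h with its 95% interval, for WT (black), *slpif8a* (blue) and *slpifq* (orange) in each organ. Filled symbols were called, open symbols were not, and the dotted line marks a log2 fold change of 1. The fitted value of *Solyc02g092820* in WT hypocotyls stands against a group without reads and is not a measured size.

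Other genes of auxin metabolism and response were read beside the 4. Most are listed by the study for their response in these samples, so their directions are not independent evidence. The 13 *Aux/IAA* genes, short-lived repressors of auxin-responsive transcription that auxin itself induces, were called higher at 6 h in WT in 8 of 13 cases for cotyledons, 6 for first leaves, 11 for hypocotyls and 9 for epicotyls, where 1.56%, 1.04%, 2% and 1.27% of all genes were. Only *Solyc03g120500*, in the cotyledons, fell. Their median log2 fold changes were 1.28, 0.88, 1.73 and 1.22, beside -0.02 to -0.01 over all genes tested. In *slpif8a* 11, 10, 10 and 9 of the 13 were called higher in the same order (against 1.51%, 0.67%, 1.17% and 1.48% of all genes), and in *slpifq* 4, 1, 5 and 2 (against 1.63%, 0.149%, 0.699% and 0.326%). At 24 h 8 of the 13 were called higher in the WT epicotyl, where *Solyc12g005310* had fallen, and 8 in the hypocotyl, beside 2.6% and 2.06% of all genes.

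Of the 3 flavin monooxygenases, enzymes of IAA synthesis, *SlYUC9* (*Solyc06g083700*) responded in the blades, with a log2 fold change at 6 h in WT of 4.58 (adjusted p = 1.90e-14) in the cotyledons and 4.41 (adjusted p = 1.28e-12) in the first leaf, against -1.15 (adjusted p = 0.553) in the hypocotyl and -0.03 (adjusted p = 0.991) in the epicotyl. *Solyc09g064160* was called in the first leaf at 1.18, the hypocotyl at 3.69 and the epicotyl at 1.94, and *Solyc06g008050* in the cotyledons at 2.56, the first leaf at 1.95 and the epicotyl at 1.30. *SlYUC9* was still called in the cotyledons at 24 h, at 6.59 (adjusted p = 1.81e-11). In *slpifq* 24FR cotyledons all 3 were called lower than in WT, as were 0.659% of all genes. The 3 IAA-amino acid hydrolases, which release IAA from the conjugates that GH3 enzymes make, were called higher in no organ at 6 h. Of all genes, 1.56%, 1.04%, 2% and 1.27% were, in cotyledons, first leaf, hypocotyl and epicotyl. One hydrolase, *Solyc05g006220*, fell in all 4 organs at 6 h in the time course, by 1.28, 1.99, 1.47 and 1.58 on the log2 scale in this order. There 1.52%, 1.21%, 2.47% and 1.24% of all genes were called lower. In the fit of the genotypes, on the same WT libraries, it was called in no organ.

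Of 5 further GH3 entries, *Solyc07g063850*, annotated like *Solyc12g005310* as closest to Arabidopsis DFL1, was the one that rose. At 6 h its log2 fold change was 1.16 (adjusted p = 0.000206) in the cotyledons and 1.26 (adjusted p = 1.64e-05) in the hypocotyl, both called, and 0.74 (adjusted p = 0.023) and 0.68 (adjusted p = 0.0188) in the first leaf and epicotyl. Of all genes, 1.56% and 2% were called higher in cotyledons and hypocotyl. In *slpif8a* cotyledons it was called at 2.00 (against 1.51% of all genes), and in *slpifq* it was called in no organ. In 24FR it was lower in *slpifq* than in *slpif8a* in the cotyledons, at -1.25 (adjusted p = 0.00301), and in the hypocotyl, at -1.29 (adjusted p = 0.00492), as were 0.584% and 0.378% of all genes. The other 4 were not called higher for light at any time, where 0.429% to 2.6% of all genes were per organ and time in WT. *Solyc07g054580*, closest to Arabidopsis DFL2, fell in WT cotyledons at 6 h (-1.68, adjusted p = 8.33e-07, against 1.52% of all genes called lower). *Solyc10g011660*, closest to Arabidopsis JAR1, which conjugates jasmonic acid rather than IAA, fell in the hypocotyl at 6 h (-1.06, adjusted p = 1.06e-11) and the epicotyl at 24 h (-1.38, adjusted p = 2.70e-15). There 2.47% and 4.33% of all genes were called lower. The median log2 fold change of the 5 at 6 h was -0.77 for cotyledons, -0.62 for first leaves, 0.46 for hypocotyls and -0.25 for epicotyls. Reads that near-identical family members share can be lost or split in counting, and this was not tested.

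Over the 24 WT groups of organ, light and time, the genes whose mean log2(CPM + 1) followed *Solyc12g005310* most closely were *Solyc02g078630* (r = 0.884), *Solyc04g074700* (r = 0.799) and *Solyc04g010285* (r = 0.774). For *Solyc02g092820* they were *Solyc08g082630* (r = 0.938), *Solyc01g105850* (r = 0.938) and *Solyc01g104550* (r = 0.937), and for *Solyc01g107390* *Solyc02g084970* (r = 0.961), *Solyc06g060360* (r = 0.957) and *Solyc01g105800* (r = 0.954). The groups share organs and the normalization, and these values of Pearson's r are descriptions without a test. Among the GH3 genes themselves, *Solyc02g092820* and *Solyc01g107390* went together at r = 0.899, both highest in the epicotyl, while *Solyc12g005310* stood at 0.16 with *Solyc02g092820* and 0.0501 with *Solyc01g107390*.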

How the data were processed

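RNA was measured in 4 organs of WT, *slpif8a* and *slpifq* seedlings, as 72 libraries of the time course and 72 of the genotypes with 24 in common. The deposited counts are reads per gene, which the authors obtained with HTSeq (v0.13.5, reverse strand, mode intersection-strict) after STAR (v2.7.9a) had placed single-end reads of both sequencing runs on genome SL4.0. The authors also deposited normalized CPM, entered here as signal, which edgeR (v3.40.2) computed from effective library sizes for the genes past their filter. Only the limma alternatives use them. *Solyc02g064830* is in neither normalized table, and *Solyc01g107390* only in that of the genotypes. The 5 entries of reads without a gene, 8.54 to 17.0% of a library, stayed out of library sizes and tests.

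From the counts, R 4.3.3 with edgeR 4.0.16 was used separately on each of the 2 tables, as in the study. Genes with more than 5 CPM, computed from library totals without TMM factors, in at least 3 libraries were kept, TMM factors were computed, and each group of organ, light, time and genotype had its own mean in the model. Contrasts were tested with the quasi-likelihood test of edgeR, and p-values were adjusted over all genes tested by the method of Benjamini and Hochberg. Intervals of 95% use the SE and degrees of freedom of that test. A fold against a group without counts is a bound at 3 counts per library, and ratios of summed counts carry exact binomial intervals, for counting error only. An exact two-sided permutation test of 3 against 3 libraries cannot give a p under 0.1, which is the value for groups that do not overlap, so calls rest on edgeR. The members, the lists and the tests were chosen with earlier results of these data known. Genes named beyond the members are those of the lists of auxin metabolism and response and, by rule, the 3 of highest Pearson r with each member tested. The submitters name biological replicates of pooled seedlings. The p-values rest on the spread between replicates over all groups of a table, moderated across genes by edgeR. They do not measure the spread within the groups compared alone, for which fits to single organs are given where they change a call.

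Replicate numbers are shared by all groups. The deviations of same-numbered samples from their group means correlated at -0.266 to 0.68 over genes, and all 3 pairs were over 0.1 in 16 of 58 comparisons of 2 groups, where blocked values are given if they change a call. Alternatives were the likelihood ratio test, DESeq2 1.42.0, its size factors in edgeR, no filter or one at 1 CPM, the organs compared alone, limma 3.58.1 on log2 of the deposited CPM plus 1 or 0.1, a replicate block, and each library left out with dispersions kept. A block of replicate within organ and time was added after the values had been seen. Sequences and genome positions of the members were not used here.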

Additional observations from a re-analysis of the deposited data

Results flagged for a closer look

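Tests of a difference between responses were called for 8 results. For *Solyc12g005310*, the response at 24 h differed from that at 6 h by -2.25 in the cotyledons, -2.72 in the hypocotyl and -2.62 in the epicotyl on the log2 scale. In the epicotyl the response itself changed sign between these times. At 6 h that of the cotyledons exceeded that of the epicotyl by 2.23, and in the cotyledons that of *slpifq* differed from that of WT by -2.61. For *Solyc02g092820* the difference between 24 and 6 h was -2.10 in the epicotyl. The fitted values of -6.32 for its hypocotyl between these times and -7.13 for first leaf against hypocotyl at 6 h both involve the hypocotyl group without reads, and depend on the prior count. With 3 libraries per group, single libraries far from the rest were not tested for.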

How the results depend on the processing

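Among 3384 values of 200 single results under the alternatives, none that was called changed direction, 107 lost their call and 67 gained one. The count of calls for genotype and light, 1 in the reported fit, was 2 with DESeq2 size factors, limma or the replicate block, 3 with DESeq2 or the likelihood ratio test and 4 with a block within organ and time. The likelihood ratio test gave 4 calls between the responses of organs, against 2. For time of day in 24WL the 7 calls became 4 in a fit to the organ alone and with limma on log2 CPM plus 1, and 2 with a block within organ and time. In fits to single organs and in limma, *Solyc02g092820* or *Solyc01g107390* could fall out of the table, and such results were counted as not called, which lowers these counts. With the replicate block, the counts of light calls were 14 in the time course against 13, and 14 in the genotypes against 14. Other counts stayed within 1.5 times the reported ones. With 1 library left out, counts were 12 to 14 for light in the time course, 12 to 14 for light in the genotypes, 4 to 6 for mutants against WT, 0 to 2 for genotype and light, 5 to 7 for *slpifq* against *slpif8a*, 4 to 5 for time and light, 2 to 3 for organ responses, 11 to 13 for organs in 24WL and 5 to 9 for time of day. Counts of *Solyc02g092820* in hypocotyls and cotyledons, and of *Solyc02g064830* throughout, are near the floor, and differences there of a few counts were not detectable at this depth.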

Other observations

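Replicates of the same number shared a pattern for *Solyc12g005310* at 6 h. In 24FR, replicate 3 was the lowest in 10 of the 12 groups of organ and genotype and the highest in 0, and replicate 1 the highest in 7. In 24WL replicate 1 was the highest in 7 and replicates 2 and 3 were each the lowest in 5. For *Solyc02g092820* replicate 3 was the lowest in 7 of 12 groups of 24FR and in 0 of 12 of 24WL. This order was not counted over all genes. The organs of a replicate may share seedlings, so the 12 groups need not be independent. Fits with a replicate block are given beside the results they change.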
